A study of Drosophila melanogaster with 3 samples.

Results

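Broad peaks that lay beside, but not on, a transcription start site were described in Drosophila melanogaster, in wandering larvae of the third instar taken whole. A promoter-flank peak was a peak of the authors' optimal list whose summit lay 201 to 1000 bp from the nearest annotated start site. Summits with a divergent protein-coding pair around them, that is a minus-strand start site to the left of a plus-strand one with both within 1 kb of the summit, were not counted. Of the 2510 optimal peaks on nuclear chromosomes, 585 met the rule (23.3%), 394 upstream and 191 downstream of the start site. The rule used position and annotation and no measured strength. The remainder comprised 413 core peaks within 200 bp of a start site, 575 peaks at divergent pairs and peaks farther away, among them 427 in introns 1 to 5 kb from a start site.

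The study had 1 group of 3 biological replicates, numbered 2, 3 and 4. All came from a transgenic line that stably expresses the form br-RE of Broad with GFP at its C terminus, and chromatin was recovered from males and females together with an antibody against GFP. The promoter that drives the fusion, the age of the larvae and the amount of fusion protein are not stated in the labels, and no untagged line was analysed here. Whole animals were used, so a site bound in few cells and a site bound weakly in many cannot be told apart. The authors deposited a ranked list of 30000 regions per replicate, a list of 27389 regions called on the pooled replicates, and the optimal list, whose 2533 peaks are the head of the pooled list. To set the replicates beside the optimal list, the 2533 regions of highest signal were taken from each. Signal is the strength that the authors' peak caller gave each region and was compared only within a list. Read depth is unknown.

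Broad is a family of zinc finger proteins with a shared BTB domain, made from the gene br by alternative splicing and induced by the steroid hormone ecdysone. It is known for directing the change from larva to pupa. In flies the stretch just upstream of a start site carries proximal regulatory sequence, and introns that follow the first exons often hold enhancers, so the flanks of promoters join core promoter and distal elements. Genes with several start sites can have an internal promoter whose upstream flank lies inside an intron of the same gene.

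The windows around 6 strong summits are printed so that single sites can be set beside the mean base composition of flank peaks, which was poorest in G and C at the summit. They are the strongest upstream and downstream peaks beside protein-coding genes whose windows lay wholly outside annotated exons, with one chromosome arm not printed. Each window has 201 bases of the plus strand of Release 6 (dm6), from RefSeq, with the central 41 bases in capitals. The upstream windows lie at chrX:2137238-2137438 (ph-p), chr3R:11760951-11761151 (Lk6) and chr3R:28326528-28326728 (larp). ph-p encodes a Polycomb group protein of the repressive complex PRC1, Lk6 a kinase of the translation factor eIF4E, and larp a La-related RNA-binding protein.
ph-p: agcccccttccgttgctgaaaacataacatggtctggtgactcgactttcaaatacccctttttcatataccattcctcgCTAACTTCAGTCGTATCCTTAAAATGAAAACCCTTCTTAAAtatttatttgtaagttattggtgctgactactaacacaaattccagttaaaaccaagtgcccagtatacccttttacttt
Lk6: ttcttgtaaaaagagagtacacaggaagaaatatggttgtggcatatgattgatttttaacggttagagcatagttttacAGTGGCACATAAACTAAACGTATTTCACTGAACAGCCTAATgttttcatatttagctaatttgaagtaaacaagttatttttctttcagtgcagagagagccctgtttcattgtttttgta
larp: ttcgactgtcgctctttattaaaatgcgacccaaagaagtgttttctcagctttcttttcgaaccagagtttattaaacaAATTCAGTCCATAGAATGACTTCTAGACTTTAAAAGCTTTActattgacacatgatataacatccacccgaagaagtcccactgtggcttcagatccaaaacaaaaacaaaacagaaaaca

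The downstream windows lie at chr2L:3302087-3302287 (CG9663), chrX:9579195-9579395 (LPCAT, a lysophospholipid acyltransferase gene) and chr3R:11656697-11656897 (CG42327). In the ph-p window, G and C made up 31.7% of the central bases and 38.8% of the outer ones. The values were 29.3% and 37.5% in the larp window, and 26.8% and 50.6% in the LPCAT window. The difference was small at CG9663 (39.0% and 41.3%), and the centre was richer in G and C than the outer bases at Lk6 (36.6% and 31.3%) and CG42327 (34.1% and 32.5%).
CG9663: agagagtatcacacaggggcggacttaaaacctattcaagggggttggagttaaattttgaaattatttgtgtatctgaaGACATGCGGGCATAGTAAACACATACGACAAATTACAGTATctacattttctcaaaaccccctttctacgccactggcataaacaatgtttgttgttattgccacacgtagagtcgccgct
LPCAT: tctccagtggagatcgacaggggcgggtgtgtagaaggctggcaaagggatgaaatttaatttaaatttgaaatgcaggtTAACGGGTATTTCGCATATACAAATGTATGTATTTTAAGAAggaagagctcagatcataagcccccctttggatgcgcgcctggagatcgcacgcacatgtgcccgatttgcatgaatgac
CG42327: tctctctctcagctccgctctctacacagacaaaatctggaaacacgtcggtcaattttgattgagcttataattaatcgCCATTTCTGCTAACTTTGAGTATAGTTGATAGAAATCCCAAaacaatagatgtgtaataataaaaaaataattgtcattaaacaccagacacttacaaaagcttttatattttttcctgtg

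Flank peaks lay upstream of the nearest start site more often than the genome offers such positions. The upstream share was 67.4% (exact 95% binomial interval 63.4 to 71.1), and 44.0% of all nuclear positions that meet the rule are upstream. Those positions include coding exons, which are 13.5% of the upstream and 42.1% of the downstream ones. The part of coding exons in the difference was not tested. In the replicates' own top regions the share was 65.1% of 587 flank regions in replicate 2, 68.4% of 583 in replicate 3 and 68.1% of 608 in replicate 4. All 3 values lay above the genome's, by 23.2 percentage points ± 1.85 (SD, n = 3). An exact sign-flip permutation test over the replicates gave p = 0.25 (two-sided), the smallest that 3 replicates allow. Intervals on shares cover counting error only.

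The excess was close to the start site. Per Mb of positions at that distance and side, the optimal list held 43.0 peaks upstream and 16.4 downstream, a ratio of 2.63. The ratio was 2.37, 2.76 and 2.72 in replicates 2, 3 and 4 (2.62 ± 0.213, SD, n = 3). Between 201 and 500 bp the ratio was 5.73 in the optimal list, with 69.1 peaks per Mb upstream and 12.05 downstream, and 4.53 ± 0.498 over the replicates. Between 501 and 1000 bp it was 1.26, with 23.9 and 19.01 peaks per Mb, and 1.40 ± 0.190 over the replicates. The ratio of the near stretch was above that of the far stretch in each of the 3 replicates, at 4.06 and 1.23, 4.47 and 1.37, and 5.05 and 1.61. The upstream bias was not particular to the flank. Core peaks had 87.9 per Mb upstream and 29.1 downstream at 1 to 100 bp. At 101 to 200 bp they had 136.4 and 16.2, and upstream was the higher in each replicate in both bins.

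From the nearest to the farthest bin, density fell upstream, and in the optimal list it rose downstream, though not at every step. From 501 to 600 bp to 601 to 700 bp it went from 24.8 to 34.3 upstream and from 18.8 to 14.6 downstream. Upstream, density was 103.5 peaks per Mb at 201 to 300 bp, 63.5 at 301 to 400 bp and 36.7 at 401 to 500 bp, and 21.1 at 901 to 1000 bp. Downstream it was 10.1 at 201 to 300 bp and 23.5 at 901 to 1000 bp. The replicates gave 11.6 ± 3.10 and 21.9 ± 2.79 for these downstream bins (SD, n = 3), and the farther bin was the higher in each. Over wider stretches the replicates differed. Downstream density at 201 to 500 bp was 16.8, 16.6 and 13.0 per Mb in replicates 2, 3 and 4. At 501 to 1000 bp it was 18.0, 15.3 and 18.9, so the farther stretch was the lower in replicate 3. The median distance was 366.5 bp for upstream and 669 bp for downstream summits.

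**Figure D1:**
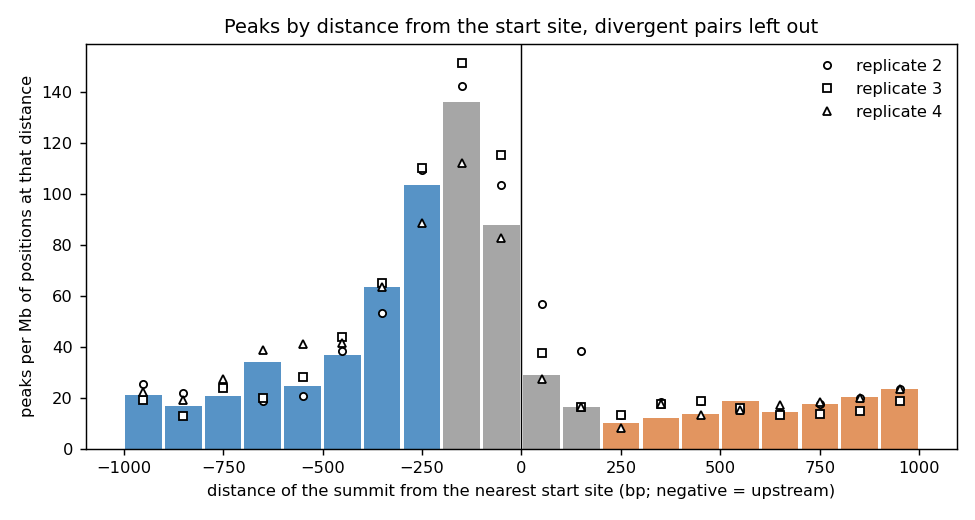
Peaks per Mb of genome positions (y axis) in 100 bp bins of signed distance from the nearest start site (x axis, negative upstream). Bars are the optimal list, coloured for flank peaks and grey for core peaks, and open symbols are the top regions of each replicate; the upstream bars fall from 103.5 at 201 to 300 bp to 21.1 at 901 to 1000 bp, and the downstream bars rise from 10.1 to 23.5.

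Most summits lay in introns or between genes, and none of the optimal list lay in a coding exon. Of the upstream summits 202 (51.3%, exact 95% interval 46.2 to 56.3) were in introns, which cover 30.6% of upstream positions, and 158 (40.1%) were between genes, against 43.7% of positions. Of the downstream summits 137 (71.7%, exact 95% interval 64.8 to 78.0) were in introns, against 32.7% of positions, and 26 (13.6%) were in 5′ UTRs, against 8.29%. The replicates placed 51.0% ± 4.01 of upstream and 69.7% ± 5.06 of downstream regions in introns (SD, n = 3). By the limit of 3 counts, 0 among 585 allows a coding-exon share of up to 0.513% in the optimal list, for counting error only, and coding exons make up 29.5% of the positions that meet the rule. The top regions of replicates 2, 3 and 4 had 2, 5 and 7 summits in coding exons, 0.783% ± 0.410 of their flank regions, and in replicates 3 and 4 the share (0.858% and 1.15%) was above that limit. The called regions themselves, which were 404 bp wide for 462 of the 585 peaks, overlapped a coding exon by at least 1 base in 19 cases (3.25%).

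The bias towards upstream positions also held among introns alone. Introns held 72.0 peaks per Mb upstream and 36.0 downstream in the optimal list, a ratio of 2.00, and the replicates gave 2.08, 1.99 and 2.04 (2.04 ± 0.0418, SD, n = 3). Between genes the densities were 39.4 and 14.2 per Mb, and the downstream value rests on 9 peaks. In 3′ UTRs of other or the same genes, 13 upstream summits and 1 downstream summit were found, against 9.75% and 4.40% of positions.

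**Figure D2:**
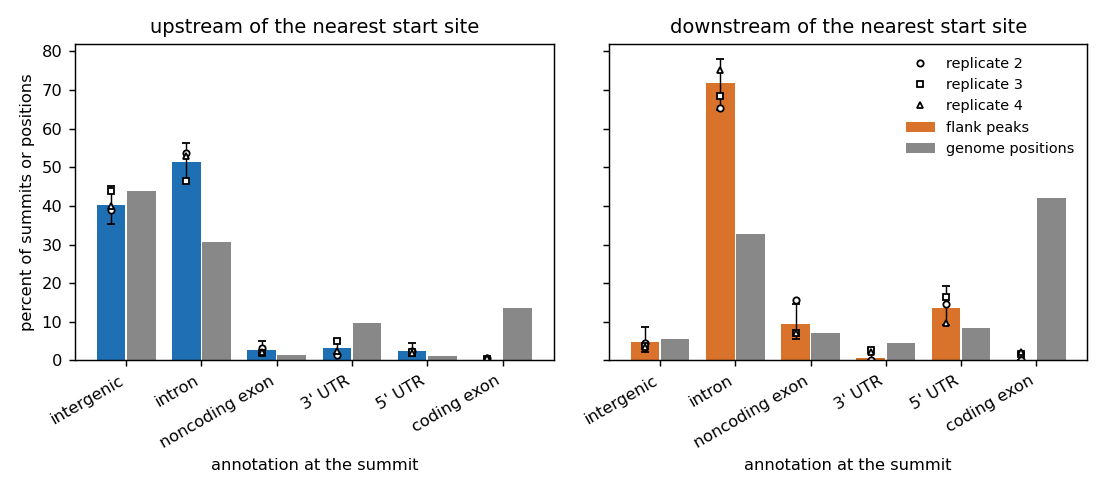
Percent of flank summits (coloured bars, with exact 95% binomial intervals) and of genome positions meeting the same rule (grey bars) in each annotation class, upstream (left) and downstream (right) of the nearest start site. Open symbols are the replicates; introns hold 51.3% of upstream and 71.7% of downstream summits, and coding exons hold none.

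Many flank peaks had an internal start site as their nearest. The nearest start site was internal, meaning not the gene's outermost one, for 168 of the 394 upstream peaks (42.6%), against 18.3% of upstream positions. No least distance from the outermost site was required, so an internal site need not be a separate promoter. At CG11151, 1 downstream summit lay 485 bp from an internal site and 523 bp from the outermost one. The replicates gave 45.5%, 38.3% and 44.4% (42.8% ± 3.88, SD, n = 3), each above the genome's share. For downstream peaks the share was 37.7% against 27.9% of positions, and the replicates gave 31.7%, 39.1% and 38.7%. The 425 protein-coding genes nearest to a flank peak, each counted once, had a median length of 10944 bp, against 2164.5 bp over all protein-coding genes, and the part of gene length in these shares was not tested. The nearest start site belonged to a protein-coding gene for 485 peaks, to a long noncoding or antisense RNA or other ncRNA gene for 92, to a tRNA gene for 7 and to a snoRNA gene for 1.

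Most flank peaks stood without a peak on the promoter itself. At 40 of the 585 (6.84%, exact 95% interval 4.93 to 9.19) the same start site was also the nearest one of an optimal summit within 200 bp. Summits within 200 bp of it but nearer to another start site were not counted, so the share is a lower bound. Another optimal summit lay within 500 bp of 50 upstream and 13 downstream peaks, and such neighbours share sequence and reads. The peaks fell to 514 genes, 459 of them with 1 peak each. The X chromosome held 121 flank peaks (20.7%), against 16.9% of all nuclear optimal peaks and 16.6% of the positions that meet the rule.

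The strongest upstream peaks were mostly in introns, at internal start sites. Of the 12 strongest, 8 were in introns and 8 were nearest to an internal start site. The strongest of all was at CG1888 (signal 1040.87), 240 bp upstream of an internal start site and within the 5′ UTR of a longer transcript, at rank 12 of the optimal list. It ranked 17, 18 and 4 in replicates 2, 3 and 4, high in all of them. The peak at ph-p (signal 895) lay 483 bp upstream of an internal start site and ranked 32, 26 and 6. The peak at Lk6 (signal 863) lay 972 bp upstream and ranked 22, 20 and 22. All 3 peaks were within the first 32 ranks of every replicate.

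The peak at larp lay 364 bp upstream of an internal start site, 9812 bp into the gene from its outermost start site, and ranked 34, 59 and 11. Sox14 encodes an HMG-box transcription factor induced by ecdysone that is required for pruning of neurons. Its peak lay 242 bp upstream of the outermost start site, between genes, and ranked 36, 109 and 29, lower in replicate 3 than in the others. An antisense RNA gene, asRNA:CR44512, had a peak 857 bp upstream, inside an intron of Zw, the gene of glucose-6-phosphate dehydrogenase, which ranked 41, 68 and 12. Rtnl1, a reticulon gene of the endoplasmic reticulum, had a peak 312 bp upstream that ranked 71, 114 and 41. HmgZ, an HMG-box chromatin protein gene, had one 527 bp upstream that ranked 53, 69 and 51. The peak at the cGMP-dependent protein kinase gene for (foraging) lay 339 bp upstream of an internal start site and ranked 51, 74 and 93. CG4496, CG43389 and the upstream side of lncRNA:CR44619 complete the 12, with optimal ranks 46, 50 and 68.

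The strongest downstream peaks lay mostly in transcribed sequence after outermost start sites. Of the 12 strongest, 7 were in introns, 3 in noncoding exons, 1 in a 5′ UTR and 1 past the end of a short RNA gene, and 1 was nearest to an internal start site. The strongest was 513 bp into lncRNA:CR44619 (signal 786), at ranks 20, 42 and 19 in replicates 2, 3 and 4. The peak 705 bp into lncRNA:CR46035, which lies within the gene of the chromatin remodelling subunit osa, ranked 26, 38 and 16. CG9663 had a peak 943 bp downstream at ranks 68, 71 and 9, and LPCAT one 692 bp downstream at ranks 49, 60 and 24. Each of these was among the top regions of all 3 replicates.

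The other downstream peaks of the 12 stood lower in the optimal list. The peak 914 bp into Mhcl, a myosin heavy chain-like gene, ranked 371, 127 and 80. The second ph-p peak, in the 5′ UTR 390 bp downstream of the outermost start site, ranked 93, 131 and 437, and it lay 643 bp from the stronger one. The peak 714 bp into Fem-1 ranked 524, 664 and 69, so replicate 4 alone placed it near the head of its list. Myo61F, a class I myosin gene, had a peak 850 bp downstream at ranks 129, 319 and 231. mub, an RNA-binding KH-domain gene, had one 946 bp downstream of an internal start site at ranks 119, 174 and 78. CG42327 ranked 111, 82 and 97, lncRNA:CR44676 ranked 235, 83 and 153, and lncRNA:CR44363 ranked 184, 249 and 287, so the 3 replicates placed CG42327 within a narrow range. The weakest flank peaks, at apt (653 bp upstream, optimal rank 2531) and cue (993 bp downstream, optimal rank 2528), were in the top regions of 1 and 2 replicates.

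Several genes carried more than 1 flank peak. Svil, a supervillin gene, had 5 beside 4 of its start sites, with ranks from 475 to 2017. Rtnl1 had 4, each upstream of a different start site. Tlk, the Tousled-like kinase gene, had 4 with ranks from 1482 to 2068, and none was in the top regions of all 3 replicates. Svil, Rtnl1 and Tlk have 16, 7 and 8 annotated start sites, against a median of 1 over all protein-coding genes. The part of the number of start sites was not tested. CG43658, CHES-1-like, HmgZ, Syp, bun, fray, lncRNA:CR43650, lncRNA:CR45243 and spri had 3 each. The 3 peaks of CG43658 were upstream of different start sites and in the top regions of all 3 replicates. A pair of HmgZ peaks was 208 bp apart and matched the same region in replicates 3 and 4, so they are not separate observations there.

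Genes of the ecdysone response were among the neighbours. Of 31 listed ecdysone response and nuclear receptor genes, 7 (22.6%) were nearest to a flank peak, against 425 of 13968 protein-coding genes (3.04%). The lists were chosen with earlier results of these data known, and no test was made of them. All the other lists had shares above 3.04% too, from 5.56% (heat shock and chaperone genes) to 26.1% (RNA-binding and translation control genes). The 425 genes had a median length of 10944 bp, against 2164.5 bp over all protein-coding genes, and the part of gene length was not tested. br itself had a peak in an intron of the overlapping gene Mur2B, 657 bp upstream of its outermost start site, at rank 1212 of the optimal list. It ranked 317 in replicate 2, and no region of the lists of replicates 3 and 4 had a summit within 200 bp of it. EcR, the ecdysone receptor gene, had one 310 bp upstream of an internal start site that ranked 441 and 704 in replicates 2 and 3 and had no counterpart in replicate 4. Hnf4, a nuclear receptor gene of lipid metabolism, had one 370 bp upstream of an internal start site that ranked 654, 1177 and 1113. The peak at E23, an ABC transporter gene induced by ecdysone, ranked 2005, 309 and 1492. Eip63E, crol and vri had peaks in the downstream flank, at optimal ranks 1506, 1834 and 2474.

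Of 23 RNA-binding and translation control genes, 6 (26.1%) were nearest to a flank peak. They were larp, the neuronal splicing regulator gene elav, the poly(A)-binding protein gene pAbp, brat, mbl and Syp. The elav peak 271 bp upstream ranked 173, 279 and 482. Of 28 insulin, TOR and growth control genes, 5 (17.9%) were: Lk6, the atypical cadherin gene ds, the Hippo pathway gene ex, Akt and InR. The ds peak 619 bp upstream ranked 95, 227 and 135, whereas the Akt peak 738 bp downstream ranked 541, 11182 and 9412 and was thus among the top regions of replicate 2 alone. Of 40 chromatin and Polycomb or trithorax genes, 5 (12.5%) were: ph-p, tara, corto, ph-d and trx. Unlike ph-p, its neighbouring copy ph-d had a weak peak, 283 bp upstream, that ranked 8574, 2278 and 719. No window of a flank peak held a stretch of 50 bases that occurs elsewhere on the chromosome arms.

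Of 44 signalling genes, 7 (15.9%) were nearest to a flank peak, led by Raf, spi, sty and Stat92E, which act in the Ras, Egfr and JAK/STAT pathways. The Raf peak, in the 5′ UTR 826 bp downstream of the outermost start site, ranked 378, 756 and 369. Of 27 cell death and autophagy genes 2 were. The peak at Diap1, the gene of the main caspase inhibitor, lay 691 bp downstream of an internal start site and ranked 176, 365 and 309. The peak at hid, whose product binds and blocks Diap1, lay 357 bp upstream between genes and ranked 185, 863 and 317. Of 12 circadian clock genes 3 (25%) were: sgg, cry and vri, of which sgg and vri stand in another list too. Of 16 BTB transcription factor genes 2 (lola and fru) and of 18 heat shock and chaperone genes 1 (stv) were.

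The support of flank peaks by the replicates was set beside that of other classes. In the top regions of all 3 replicates were 257 of the 585 flank peaks (43.9%, exact 95% interval 39.9 to 48.1), 46.7% of the upstream and 38.2% of the downstream ones. The difference of 8.48 percentage points missed the threshold of 0.05 (Fisher's exact test, two-sided, adjusted p = 0.0930). Of core peaks 36.6% were in all 3, 7.37 points less (Fisher's exact test, adjusted p = 0.0663), and of intronic peaks 1 to 5 kb from a start site 42.2% were (adjusted p = 0.607). Without replicate 3, for support in both remaining replicates, the difference from core peaks was 9.74 points and passed (Fisher's exact test, adjusted p = 0.00762). The p-values are Benjamini-Hochberg values over the 3 comparisons. Peaks are the units of these and the following tests, so a p describes these lists and not new animals. The summits of replicates 2, 3 and 4 matched 73.3%, 69.2% and 73.0% of flank peaks. Support fell with signal: 95.1% of flank peaks in the strongest 25% of nuclear optimal peaks were in all 3, and 0% in the weakest 25%. Median signal was 132.6 for flank and 119.2 for core peaks. The part of signal in the differences of support was not tested.

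Among the strongest 25% of nuclear optimal peaks, 182 were flank peaks (29.0%), against 20.7%, 20.3% and 23.2% in the following groups of equal size. In the strongest 25% of each replicate's top regions the share was 29.9%, 27.0% and 27.0%. The upstream share was 72.5% in the strongest 25% of optimal peaks and 66.9%, 62.2% and 65.8% in the following groups. From the strongest group to the weakest it was 73.9%, 63.8%, 63.9% and 54.4% in replicate 2, and 74.0%, 64.7%, 65.9% and 67.8% in replicate 3. In replicate 4 it was 68.4%, 70.1%, 67.5% and 66.4%, with the second group above the first. Median signal was 137.5 for upstream and 125.5 for downstream peaks, and the quartiles overlapped widely (103.0 to 201.6 and 101.3 to 181.3).

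The upstream bias weakened below the head of the pooled list. Its first 2533 regions are the optimal list, with 67.4% upstream. The next groups of equal size had 60.9%, 59.2% and 53.6%, and the following ones lay between 50.6% and 57.1%. Over the whole pooled list 3244 of 5751 flank regions were upstream (56.4%). The interval of the sixth group, 46.4 to 54.9, lay above 44.0%, the share of all positions with coding exons included. Coding exons are 13.5% of upstream and 42.1% of downstream positions and held no summit of the optimal list. Their part was not tested, and no share of positions without them was taken. The weaker groups therefore cannot be said to exceed the genome outside coding exons.

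**Figure D3:**
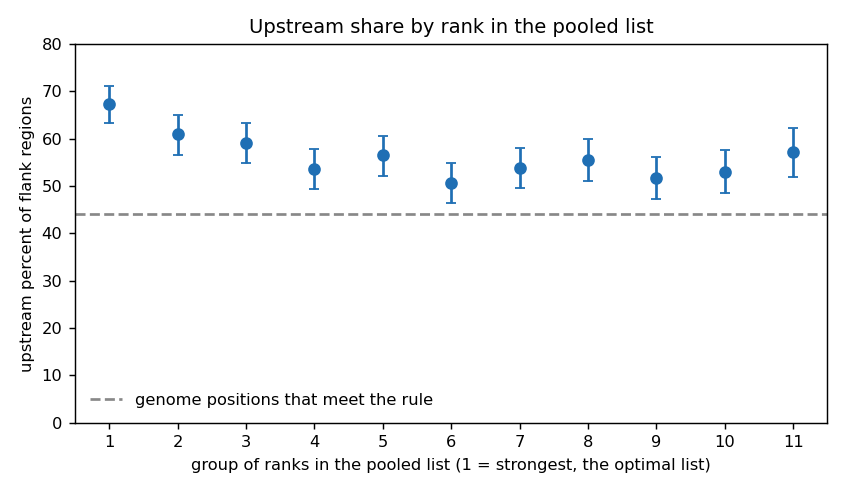
Upstream percent of flank regions (y axis) in groups of ranks of the pooled list, strongest first (x axis; each of 2533 regions, the last smaller). Points carry exact 95% binomial intervals, and the dashed line is the share of genome positions with coding exons included, 44.0%. The upstream share of flank regions is 67.4% in group 1 and 50.6% in group 6.

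Base composition dipped at the summit. The mean G and C content of 20 bp bins was 33.4% at upstream and 33.7% at downstream summits. It was 45.8% and 44.4% at 200 bp towards the start site, and 43.6% and 43.0% at 200 bp away from it. Over the 201 bp windows it was 36.0% for upstream, 37.9% for downstream and 38.3% for core peaks. Genome windows meeting the rule had 40.2% upstream and 44.9% downstream. The replicates differed in this measure: flank windows had 40.1%, 34.5% and 37.1% in replicates 2, 3 and 4, and the order was the same for core windows (44.1%, 35.0% and 38.7%). The part of this difference in the word counts that follow was not tested.

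**Figure D4:**
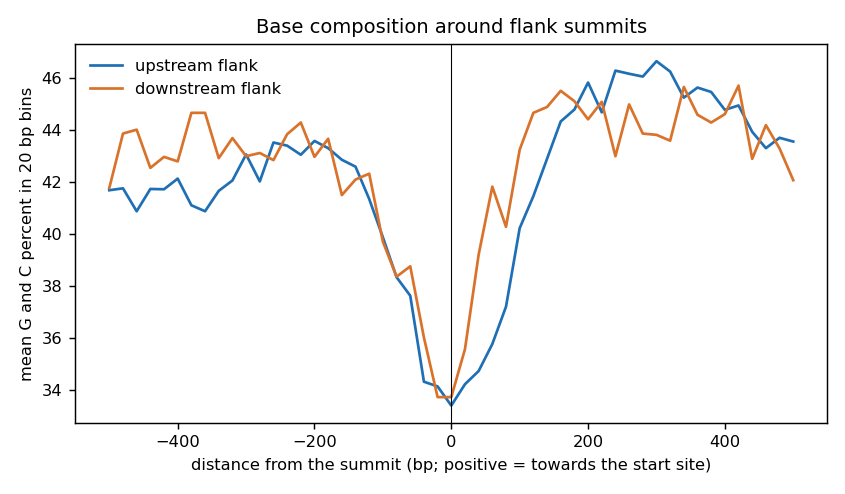
Mean G and C percent in 20 bp bins (y axis) by distance from the summit (x axis, positive towards the start site) for the 394 upstream and 191 downstream flank peaks. Both curves have their low at the summit, 33.4% and 33.7%, and stand above 42% from 200 to 300 bp on both sides.

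Sequence words were counted in the 201 bp windows to ask whether upstream and downstream flanks hold the same motifs. There were 16 words, sought on both strands. They were the DNA replication-related element TATCGATA, a core word for each of 3 Broad isoforms (CTATTT for Z2, AAACTA for Z3 and GTAAACA for Z4), a run AAAAAAAA, the GAGA factor repeat GAGAGAG and the repeat ACACACAC. The others were the Zelda word CAGGTAG, the E-boxes CACGTG and CAGCTG, the AP-1 word TGACTCA, the nuclear receptor word AGGTCA, the M1BP word GGTCACAC, the GATA word GATAAG, the TATA word TATAAA and the initiator core TCAGT. The M1BP word can overlap the nuclear receptor word and the ACACACAC repeat by a few bases. A match is a description of letters and no measure of binding.

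Upstream and downstream flanks differed in 1 of the 16 words (6.25% of those tested). ACACACAC was in 3.05% of upstream and 9.95% of downstream windows (Fisher's exact test, two-sided, adjusted p = 0.0189), and in 3.34% and 3.67% of genome windows. The difference had the same direction in all 3 replicates, −4.80 points ± 3.87 (SD, n = 3), with a mean smaller than in the optimal list. It missed the threshold under 8 of 10 alternatives, among them the leaving out of each replicate, with −2.28, −3.72 and −5.74 points without replicates 2, 3 and 4. The Z4 word GTAAACA was in 6.09% of upstream and 2.09% of downstream windows, which missed the threshold (Fisher's exact test, adjusted p = 0.304). The Z2 word was in 25.6% and 21.5%, and the Z3 word in 17.5% and 18.3%, of upstream and downstream windows (Fisher's exact test, adjusted p = 0.937 and 1), against 16.9% and 17.2% of upstream genome windows and 12.9% and 12.7% of downstream ones.

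Flank and core peaks differed in 3 of the 16 words (18.8%). The rule itself sets the 2 classes apart by distance, with median distances of 444 bp for flank and 108 bp for core summits. Core windows thus cover sequence nearer the start site, and no flank window reaches its nearest one. The part of this placing in the word differences was not tested. TATCGATA, bound by the core promoter factor DREF, was in 4 of 585 flank windows (0.684%) and 25 of 413 core windows (6.05%, Fisher's exact test, adjusted p = 1.16e-05). GGTCACAC, bound by the pausing factor M1BP, was in 1 flank window (0.171%) and 12 core windows (2.91%, Fisher's exact test, adjusted p = 0.00149). Both words were lower in the flank in all 3 replicates, by −4.90 points ± 3.09 and −2.79 points ± 1.05 (SD, n = 3). ACACACAC was in 5.30% of flank and 1.69% of core windows (Fisher's exact test, adjusted p = 0.0200), but the replicates gave a mean difference of 0.461 points ± 1.30 and it was higher in the flank in 2 of 3. In the smaller sets kept without 1 replicate, the first word was at −1.85 points without replicate 3 and −2.80 points without replicate 4 and missed the threshold in both (Fisher's exact test, adjusted p = 0.265 and 0.116). The M1BP word was at −2.20, −1.62 and −2.08 points without replicates 2, 3 and 4 and missed it in each, and the ACACACAC difference was 0.0453, −0.0542 and 1.05 points and missed it in each.

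The shares of flank windows with the DNA replication-related element and the M1BP word were close to those of genome windows, 0.427% and 0.298%. Shares of the words were also taken 300 bp to either side of the same summits, as a description with no test, and some are given here. TATAAA was in 33.8% of summit windows, 17.6% of windows centred 300 bp towards the start site and 20.3% of those 300 bp away from it. The Z2 word was in 24.3%, 11.8% and 15.6%, and GATAAG in 12.5%, 6.84% and 10.4%. These words are rich in A and T, as the summits are, and the part of base composition was not tested. The GAGA word was in 8.72%, 12.6% and 10.1%, and the run AAAAAAAA in 13.3%, 11.97% and 13.7%. The M1BP word was in 0.171%, 1.71% and 0.342%, and TATCGATA in 0.684%, 1.03% and 0.855%. The initiator core was in 33.5%, 34.4% and 26.7%. ACACACAC was in 5.30%, 11.8% and 7.35%, and so was less frequent at the summit than on either side. It was in 3.05%, 9.39% and 6.60% for upstream peaks, and in 9.95%, 16.8% and 8.90% for downstream peaks.

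**Figure D5:**
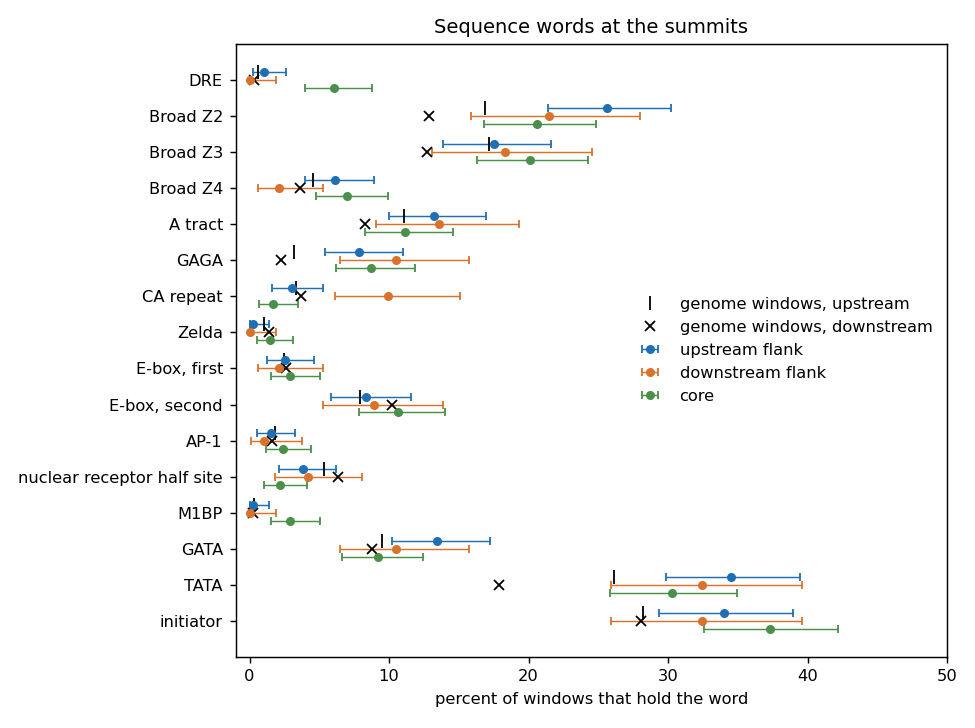
Percent of 201 bp windows that hold each word (x axis) for upstream flank, downstream flank and core peaks (points with exact 95% binomial intervals) and for genome windows meeting the rule on each side (black marks). The E-boxes are named in the order of the text; the CA repeat is at 3.05% upstream and 9.95% downstream, and the DNA replication-related element (DRE) is at 6.05% in core windows.

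Peaks on either side of the bounds are given as a description. Just inside the lower bound were peaks 201 bp upstream of CG2816 (rank 263) and Ncc69 (rank 2304) and 202 bp downstream of Cerk (rank 191), and just outside it were those at bib and lncRNA:CR43337, both 200 bp upstream (ranks 1715 and 1965). Within 20 bp above the lower bound lay 42 peaks with a median signal of 141, and within 20 bp below it 41 with 138. At the upper bound, peaks lay 997 bp downstream of Syp and 998 bp downstream of lncRNA:CR43334, and outside it 1003 bp upstream of lncRNA:CR45754 and 1005 bp upstream of chif (rank 77). Within 20 bp below the upper bound lay 10 peaks with a median signal of 127, and within 20 bp above it 10 with 172. The labels give sheared fragments of 200 to 800 bp, so a summit's distance is known less exactly than its printed position.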

How the data were processed

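Each of the 3 biological replicates was measured by chromatin immunoprecipitation and sequencing. The authors deposited region lists with a signal value per region for dm6 and dm3, and the dm6 lists were used here. How the signal was normalized, which aligner was run and which peak caller, being not given in the sources used here, cannot be stated. The pooled and optimal lists were made by the authors from all 3 replicates, per the file names. Read depth is unknown.

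Genes came from Ensembl release 115 (BDGP 6.54), without pseudogenes and transposable elements, and sequence from the RefSeq copy of Release 6. Every region was within the chromosome ends. Summits are 1-based. A peak was supported by a replicate when one of its 2533 strongest regions had a summit within 200 bp. Genome positions are all nuclear positions meeting the rule. Words were tested by Fisher's exact test (two-sided) with Benjamini-Hochberg adjustment over 16 words and a threshold of 0.05, in Python 3.11.15 with numpy 2.4.6 and scipy 1.17.1, tested on simulated data. Intervals are exact binomial.

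The text names genes nearest to the 12 strongest upstream and 12 strongest downstream peaks, the weakest on each side, genes with at least 3 flank peaks, up to 4 genes per list in order of signal (the remaining list members, named after their values were seen), and peaks at the bounds. The class, the 9 gene lists and the words were chosen with earlier results of these data known. Of the listed symbols, 234 matched by symbol, 8 by synonym and 6 not. Alternatives changed the distance bounds, the pair rule, the start sites, the strength, peaks per gene, support distance and window size, and left out each replicate.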

Additional observations from a re-analysis of the deposited data

How the results depend on the processing

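The upstream share kept its side of the genome's share under every alternative run. It was 59.0% with only summits over 300 bp from the start site, where the genome had 43.4%, and 70.2% in the strongest 50% of peaks. The number of flank peaks was 306 to 322 and their upstream share 69.9% to 70.6% without any one replicate, since such a set keeps only peaks supported by both remaining replicates. These peaks were still called by the authors from all 3 replicates. Such runs therefore cannot show how the calls depended on the replicate left out.

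The count of words called upstream against downstream was 0 with summits over 300 bp, in the strongest 50% of peaks, with 1 peak per gene, with windows of 50 bp or 200 bp to either side and without any one replicate. For flank against core it was 5 with peaks at divergent pairs kept, 1 in the strongest 50% of peaks and 1 with windows of 50 bp to either side, and 0 to 1 without any one replicate. Those sets are smaller by construction, except for the changed windows and the pairs kept, where the cause was not tested. The ACACACAC difference between flank and core was −0.0542 to 1.05 points without any one replicate, the former without replicate 3.

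Support in all 3 replicates was higher in flank than in core peaks by 7.95 points with summits matched within 500 bp (Fisher's exact test, adjusted p = 0.0416). Without any one replicate, the measure became support in both remaining replicates. It was then higher in flank than in core peaks by 5.82 to 9.74 points, past the threshold without replicate 3. Against intronic peaks the difference was −0.421 points with summits matched within 100 bp and −1.46 points with all regions of each list. It was −1.21 to 5.86 points without any one replicate, with −0.620 points without replicate 4, and none passed the threshold. The support of upstream against downstream peaks missed the threshold under all 11 alternatives. Read depth is unknown, so the limit that depth sets on weak peaks cannot be given.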
